A study of Mus musculus with 2 samples.

Results

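*Mme* encodes neprilysin (CD10), a zinc peptidase anchored in the plasma membrane with its active site outside the cell. It was followed in DP thymocytes, which carry both CD4 and CD8, beside *Anpep* (CD13), *Enpep* (aminopeptidase A, also known as BP-1), *Dpp4* (CD26) and *Ece1* (endothelin-converting enzyme 1). These 5 genes were found among the 21041 genes of the deposited table by their symbols. *Mme* was chosen by its ratio between the 2 libraries described here, as the strongest increase among well-counted genes, and the other 4 were set beside it as peptidases of the cell surface. The ratio of *Mme* is therefore a description of the choice and not a finding. Within the 2472 genes that averaged at least 100 over both libraries, the ratio of *Mme* was 8.65, and the next highest ratio was 4.26, for *Fos*.

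DP thymocytes were sequenced as 1 RNA-seq library per genotype, WT and *Cxxc1*-deficient. CXXC1 is the CpG-binding subunit of the SETD1 complex, which trimethylates lysine 4 of histone H3. In the paper, the WT mice are *Cxxc1* fl/fl and the deficient mice are *Cxxc1* fl/fl h*CD2*-Cre, on a C57BL/6 background, at an age of a few weeks. The human CD2 promoter drives Cre from early thymocytes onwards and in other immune cells, so cells before the DP stage and non-T cells can also lose the gene. The genotype label of the deficient sample reads *Cxxc1*+/- instead, and the library was grouped by its title. How many mice gave each library is not given in the sources used here. Replicates are lacking, so p-values are not given for any difference.

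The deposited values are normalized per gene length and rounded to whole numbers, so levels can be compared between genes. Their steps gave the weight of 1 read, which put approximately 1403733 reads on genes for WT and 724841 for the deficient library. Ratios are *Cxxc1*-deficient over WT, with values under 1 raised to 1. Their 95% Clopper-Pearson intervals come from approximate reads, assume the longest annotated transcript, and cover counting error only. They compare these libraries rather than the genotypes. In bulk cells, fewer cells of a type and less RNA per cell cannot be told apart. *Cxxc1* itself had 91 in WT and 50 in deficient cells, giving a ratio of 0.549 (interval 0.338 to 0.876). The deficient value was under the 95th percentile of olfactory receptor genes in that library, 57, which is described next as background, and the value covers the whole gene rather than the deleted exons. Genes of the Y chromosome were above 0 for 7 of 15 in the *Cxxc1*-deficient library and for 0 of 15 in WT, while *Xist*, the RNA of the inactive X chromosome, had 2419 in WT and 1021 in the deficient library. The part of the sex of the mice in the differences was not tested. Genes that are silent in thymocytes give the background of each library. The 1102 olfactory receptor genes had a median of 22 in WT and 24 in deficient cells, with 95th percentiles of 53.95 and 57. DP markers stood far above it, and of the 10 listed all exceeded the 95th percentile in WT, from *Rag1*, the recombinase gene, at 20778 and 5058 down to *Ptcra* at 79 and 44, which did not exceed it in the deficient library. The sums of this list were 36355 in WT and 9374 in deficient cells, with *Rag1* the largest part of both. As deposited, 9 of the 10 were at least 2-fold lower and 0 higher, beside 56.8% and 0.485% of genes averaging at least 100. When those genes were given the same median in both libraries, 4 of the 10 were lower and 0 higher. Of all 20125 genes above 0 in at least 1 library, 706 were then lower and 7492 higher.

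Surface peptidases trim or destroy peptide hormones and chemokines at the membrane, and so set how long such a signal lasts near the cell. Neprilysin cleaves enkephalins, substance P and natriuretic peptides on the amino side of hydrophobic residues. Aminopeptidases N and A remove single residues from the amino end, and DPP4 removes dipeptides that end in proline or alanine. Several of these enzymes were first known as differentiation antigens of lymphocytes. CD10 marks early lymphoid progenitors and germinal-centre B cells in humans, BP-1 marks precursor B cells and cortical thymic epithelium in mice, and CD26 is found on thymocytes and activated T cells.

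The genes fall into 3 enzyme families that can be read from the codons of the active site, which are shown because they set the metallopeptidases apart from the serine peptidase. In each sequence, from the coding transcripts of GENCODE vM1 on NCBIM37 (mm9), the codons of the motif are in capitals within a stretch of 15 codons of reading frame.
Mme: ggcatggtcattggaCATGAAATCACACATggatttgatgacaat
Ece1: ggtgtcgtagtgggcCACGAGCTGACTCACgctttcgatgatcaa
Anpep: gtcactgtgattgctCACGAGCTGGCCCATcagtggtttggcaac
Enpep: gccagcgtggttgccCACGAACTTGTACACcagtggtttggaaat
Dpp4: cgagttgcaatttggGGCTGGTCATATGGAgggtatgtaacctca
The motif reads HEITH in neprilysin, HELTH in ECE1, HELAH in aminopeptidase N and HELVH in aminopeptidase A, where the His residues hold the zinc ion and the Glu takes part in catalysis. In DPP4 it reads GWSYG, with the catalytic Ser in the middle. Each motif occurred once in its protein. In *Mme* the capitals lie at chr3:63165943-63165957 on the plus strand, in exon 18 of 23. In *Ece1* they lie at chr4:137513087-137513101 on the plus strand in exon 17 of 20, in *Anpep* at chr7:86984052-86984066 on the minus strand in exon 6 of 21, and in *Enpep* at chr3:129012690-129012704 on the minus strand in exon 5 of 20. The codons of *Dpp4* are split by an intron and lie within chr2:62185966-62186563 on the minus strand, at the junction of exons 21 and 22 of 26. The proteins have 750 residues for *Mme*, 753 for *Ece1*, 966 for *Anpep*, 945 for *Enpep* and 760 for *Dpp4*.

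*Mme* (ENSMUSG00000027820.6, chr3:63099794-63186153 on the plus strand of mm9) stood at 34 in WT and at 294 in *Cxxc1*-deficient DP thymocytes. The WT value lay at the level of silent genes, since 29.5% of the olfactory receptor genes reached it, whereas 0% of them reached 294. The ratio was 8.65 (interval 6.01 to 12.4). It rests on approximately 36 reads in WT and 265 in deficient cells. With the shorter coding transcript of 3693 bases in place of 4240, the interval was 5.92 to 13. By value, *Mme* took rank 11166 of 21041 in WT and rank 148 in deficient cells. Among the 784 genes whose mean was within 20% of that of *Mme*, the median ratio was 0.477 and the highest was 3.29. At least 2-fold higher values were found for 0.485% of the genes averaging at least 100, and at least 2-fold lower values for 56.8%. Since *Mme* was picked for this contrast, nothing is read from its place among them. Subtracting the median of olfactory receptor genes from each library gave a ratio of 22.5, so the size of the difference depends on what is taken as background in WT.

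**Figure D1:**
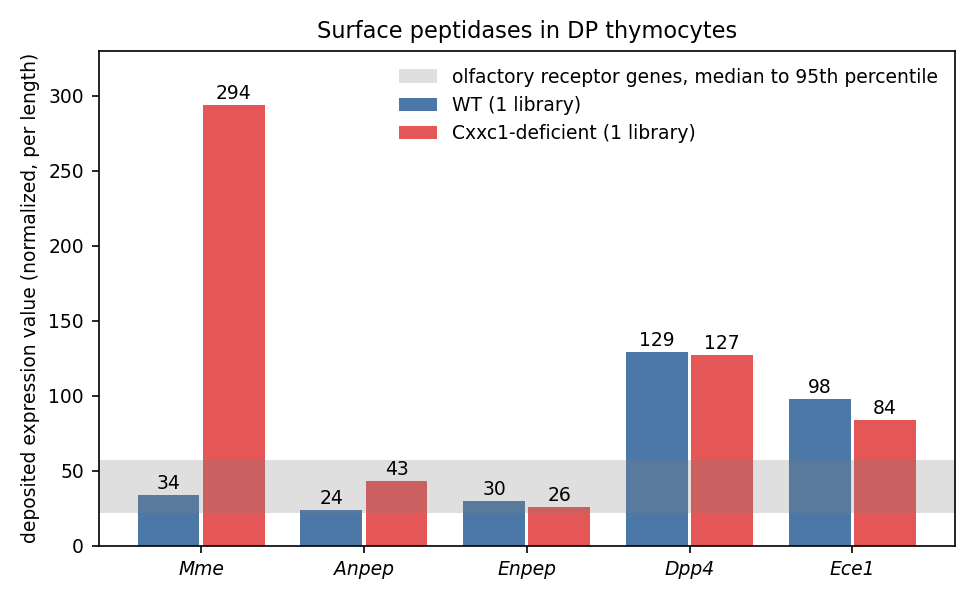
Deposited expression values (normalized per length, linear axis from 0) of the 5 peptidase genes in the WT library (blue) and the Cxxc1-deficient library (red), 1 library each and hence no error bars. The grey band runs from the lower of the median values of olfactory receptor genes, 22, to the higher of their 95th percentiles, 57; Mme is inside it in WT and at 294 in the Cxxc1-deficient library, while Dpp4 and Ece1 are above it in both.

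*Ece1*, the other member of the neprilysin family that was above background, encodes the enzyme that makes active endothelin from its precursor. It lies at chr4:137418152-137521144 on the plus strand (ENSMUSG00000057530.7). It was listed at 98 in WT and 84 in the deficient library. The ratio of 0.857 had an interval from 0.642 to 1.15, so a difference was not detectable at this depth, and scaling the libraries to the same 75th percentile moved the ratio to 1.12. The 1586 genes within 20% of its mean had a median ratio of 0.598, and 243 of them had a ratio at least as high as *Ece1*. The locus overlaps 2 other annotated genes, and reads shared with them cannot be told apart here.

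*Dpp4* (ENSMUSG00000035000.8, chr2:62168130-62250288 on the minus strand) had the highest value of the 5 genes in WT. It had 129 in WT and 127 in deficient DP thymocytes, for a ratio of 0.984 (interval 0.778 to 1.23). Both values rest on more than 100 reads, approximately 168 and 142. Most genes of this level were lower in deficient cells. The 1059 genes within 20% of its mean had a median ratio of 0.513, and 59 of them had a ratio at least as high as *Dpp4*. The gene overlaps 1 other annotated gene.

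*Anpep*, on chr7:86966689-86993096 of the minus strand (ENSMUSG00000039062.8), encodes aminopeptidase N, which is found on myeloid cells and stromal cells. The level was 24 in WT and 43 in the deficient library. Both values were within the range of silent genes, and 47.5% and 18.3% of the olfactory receptor genes were at or above them. The ratio was 1.79 (interval 1.05 to 3.30), on approximately 22 and 35 reads. With the shorter coding transcript the lower bound was 0.992, so whether counting error alone spans this difference depends on the transcript. Of the 6566 genes within 20% of its mean, 479 had a ratio at least as high.

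*Enpep*, on chr3:128972093-129035638 of the minus strand (ENSMUSG00000028024.7), encodes the enzyme that converts angiotensin II to angiotensin III. It had 30 in WT and 26 in deficient DP thymocytes, for a ratio of 0.867 (interval 0.479 to 1.52), or 1.13 when the libraries were scaled to the same 75th percentile. Both values were at the level of silent genes, which 37.5% and 44.4% of the olfactory receptor genes reached.

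In WT the order of levels was *Dpp4*, *Ece1*, *Mme*, *Enpep* and *Anpep*. *Dpp4* was 1.32 times *Ece1*, with a counting interval from 1.04 to 1.69, and *Ece1* was 2.88 times *Mme* (interval 1.94 to 4.25). *Mme*, *Enpep* and *Anpep* did not differ from their neighbours beyond counting error, with 1.13 times (0.689 to 1.91) for *Mme* over *Enpep* and 1.25 times (0.717 to 2.32) for *Enpep* over *Anpep*. In *Cxxc1*-deficient cells the order was *Mme*, *Dpp4*, *Ece1*, *Anpep* and *Enpep*. *Mme* was there 2.31 times *Dpp4* (interval 1.88 to 2.86), and only *Anpep* and *Enpep*, at 1.65 times (0.963 to 2.97), were neighbours within counting error. At the threshold of 2-fold, 1 of the 5 genes, *Mme*, was higher and 0 were lower. Over all 20125 genes above 0 in at least 1 library, 5.89% were at least 2-fold higher and 17.4% at least 2-fold lower, that is 1186 and 3502 genes. Given the same median over well-expressed genes, these became 7492 and 706, so the split between higher and lower rests on the scaling. With *Mme* chosen by its ratio, only the other 4 can be set against these shares, and 0 of the 4 passed in either direction as deposited. *Anpep* passed 2-fold in 5 of the 8 other settings, with ratios from 2.34 to 9.5, and *Enpep* was 0.25 after subtraction of the olfactory receptor median, so this count also rests on the processing.

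**Figure D2:**
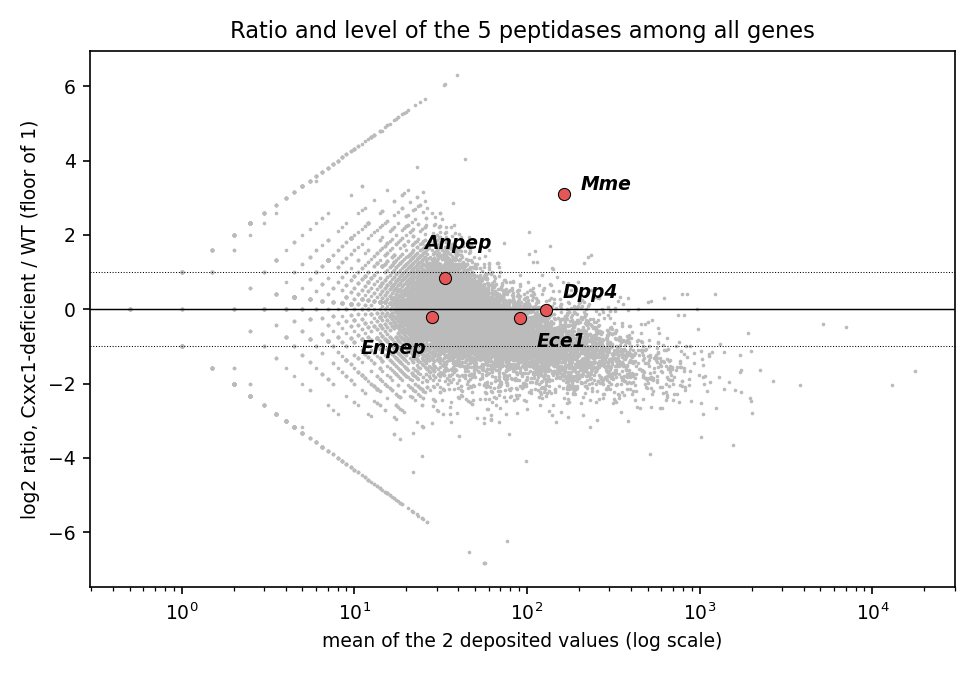
Each grey point is a gene above 0 in at least 1 library, with the mean of the 2 deposited values on a log axis and the log2 ratio of Cxxc1-deficient to WT (floor of 1) on the vertical axis; dotted lines mark 2-fold. The 5 peptidases are in red, with Mme at 3.11 and the other 4 between -0.22 and 0.84; most grey points beyond a mean of 100 lie under 0.

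The rest of the neprilysin family was at background. *Ece2* had 48 in WT and 26 in deficient cells, *Phex* 33 and 32, *Mmel1* 26 and 16 and *Ecel1* 17 and 18. *Kel*, the Kell blood group peptidase, had 16 and 34, giving a ratio of 2.13 whose interval from 0.913 to 5.06 includes 1. *Mme* alone of the 7 family genes exceeded the 95th percentile of silent genes in deficient cells without doing so in WT. Since *Mme* was chosen by its ratio in these libraries, this describes the choice and is not a finding.

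Of 61 genes listed over 8 families of surface and related peptidases, 60 were in the table. Leaving out the 5 genes above, 55 remained, of which 3 were at least 2-fold higher and 8 at least 2-fold lower. Once the well-expressed genes of both libraries had the same median, these became 25 and 0, beside 7492 and 706 of all 20125 genes. As deposited, these counts are near the shares over all genes, 5.89% and 17.4%, and are not a result about peptidases. Their median log2 ratio was 0, beside -0.20 over all genes. The 3 that were higher, *Kel*, *Cpz* and *Tmprss6*, had values of at most 34, and the intervals of all 3 included 1. The 8 that were lower had intervals under 1 throughout. All of them exceeded the 95th percentile of olfactory receptors in at least 1 library, *Adam12*, *Mmp14* and *Mmp17* in WT only. A high WT value both passes that percentile and makes a gene lower, so the passing lends no weight to the count. Of the 55 genes, 13 exceeded the 95th percentile of olfactory receptors in at least 1 library, so most of these peptidases did not stand above that level. The level was not matched for transcript length, so low expression of the others is not excluded.

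Of these 13 genes, 12 were lower in the deficient library and *Bace1*, the beta-secretase, was equal at 58 and 58. Among the 2472 genes averaging at least 100, 2353 were lower, against 6697 of the 13996 genes averaging under 50. The 13 genes span both levels, with means from 40 for *Mmp17* to 372.5 for *Lnpep*. This count has no single background and is not read as a result about peptidases. *Lnpep*, the insulin-regulated aminopeptidase of endosomes and the cell surface, had the highest value of the M1 family, with 528 in WT and 217 in the deficient library. Its fold reduction was 2.43 (interval 2.10 to 2.83). *Npepps*, the cytosolic puromycin-sensitive aminopeptidase, had 138 and 61. *Dpp8*, a cytosolic relative of *Dpp4*, had 308 and 110, or a fold reduction of 2.80 (interval 2.27 to 3.51). Its interval did not overlap that of *Dpp4*, whose ratio was 0.984 within the same family and libraries. Of the genes averaging at least 100, as *Lnpep* and *Dpp8* did, 56.8% were at least 2-fold lower, so such reductions were common at that level.

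Among the 55 genes, the largest reductions were those of the sheddases ADAM10 and ADAM17, which release the extracellular parts of membrane proteins, NOTCH1 among the substrates of the former. *Adam10* had 245 in WT and 72 in deficient cells, or a fold reduction of 3.40 (interval 2.62 to 4.5). *Adam17* had 250 and 72, or a fold reduction of 3.47 (interval 2.67 to 4.62). Both averaged at least 100, where 56.8% of genes were at least 2-fold lower. With the same median over well-expressed genes, 0 of the 8 listed ADAM genes were at least 2-fold lower. *Adam12* had 61 and 29. Of the membrane-type matrix metalloproteinases, *Mmp14* had 59 and 22 and *Mmp17* had 57 and 23, both above background in WT only. The other 4 genes above background were within 2-fold. *Erap1*, which trims peptides for MHC class I, had 121 and 93, *Lta4h* had 106 and 66, *Rnpepl1* had 92 and 59 and *Dpp9* had 60 and 39. In the remaining lists, the highest means were those of *Cpm*, a carboxypeptidase with 38 and 46, and *Ace*, the angiotensin-converting enzyme with 22 and 35, both at background.

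**Figure D3:**
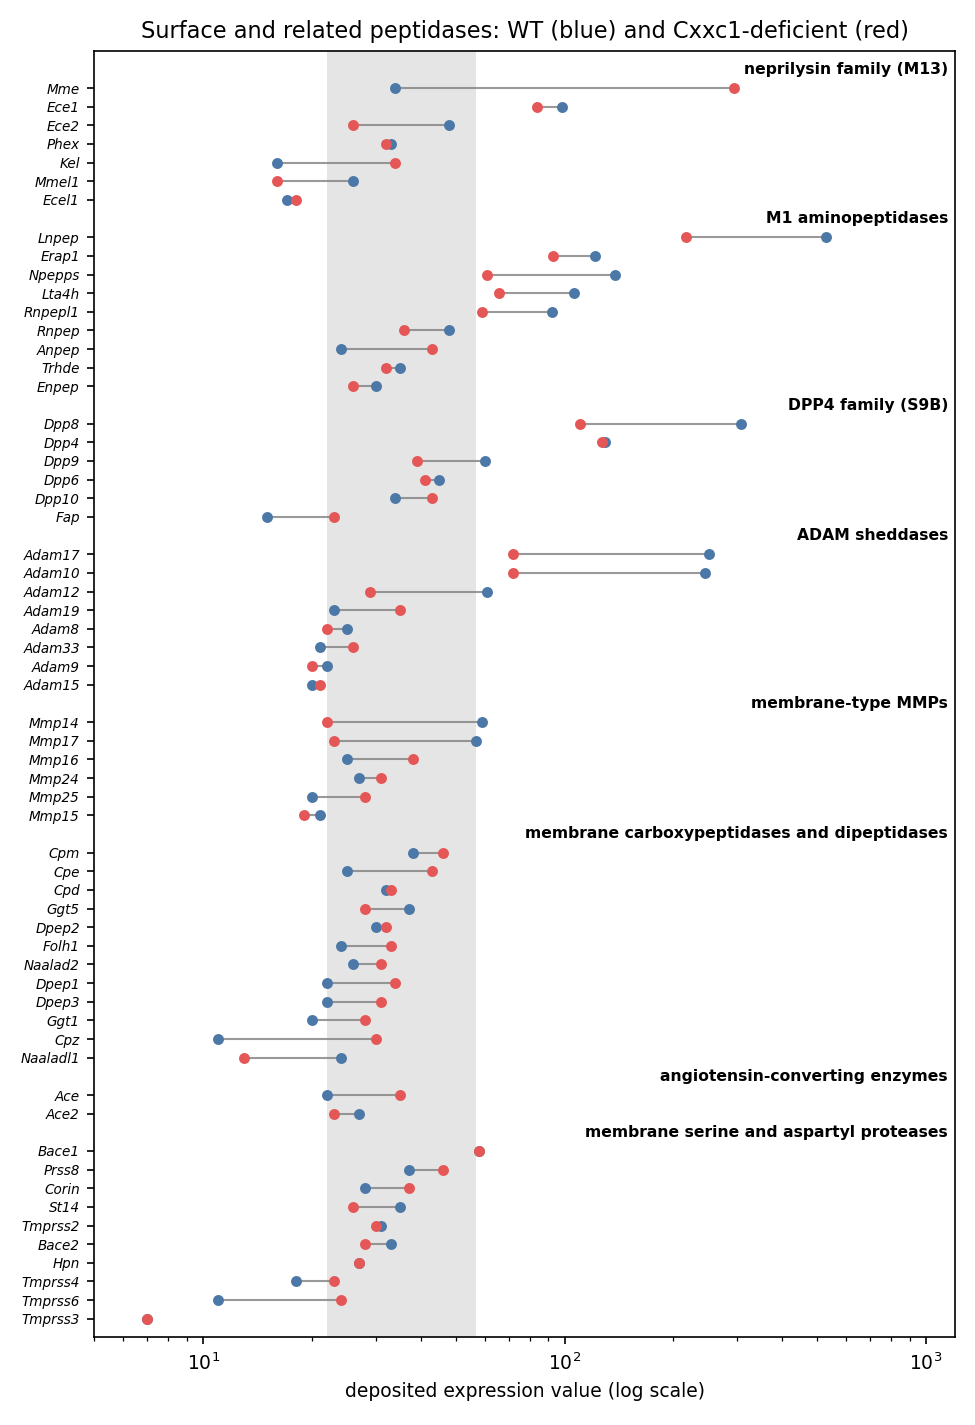
Deposited values (log axis) of 60 peptidase genes in the WT library (blue points) and the Cxxc1-deficient library (red points), joined by a line per gene and grouped by family; the grey band is the range of olfactory receptor genes from median to 95th percentile. Mme, which was chosen by its ratio, has its red point to the right of the band and its blue point inside. Lnpep, Dpp8, Adam10 and Adam17 lie to the right of the band with lower red points.

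Of 14 genes of peptide ligands, 1 was at least 2-fold higher and 0 were lower, beside 5.89% and 17.4% of all genes. With the same median over well-expressed genes 9 were higher and 0 lower, beside 7492 and 706 of all 20125 genes. The 1 that was higher as deposited was *Nppb*, a natriuretic peptide and substrate of neprilysin, with 10 in WT and 54 in deficient cells. It rested on approximately 2 and 9 reads. Its ratio of 5.40 had an interval from 1.08 to 49.6, with both values within background. *Penk*, the enkephalin precursor, had 34 and 50, and *Tac1*, which encodes substance P, had 43 and 32. *Cxcl12*, a chemokine that DPP4 inactivates, had the highest mean of the ligands, with 77 and 73 and an interval of the ratio from 0.702 to 1.26.

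Of 18 receptors and partners, 2 were at least 2-fold higher and 3 at least 2-fold lower, beside the same 5.89% and 17.4%. With the same median over well-expressed genes 11 were higher and 0 lower, beside 7492 and 706 of all 20125 genes. *Ramp2*, a subunit of the adrenomedullin receptor, had 9 in WT and 54 in deficient cells, giving a ratio of 6.0 (interval 1.90 to 35.0) on approximately 3 and 17 reads, again within background. Its partner *Calcrl* had 301 and 185, or a fold reduction of 1.63. *Oprm1*, the mu opioid receptor, had 20 and 41, also within background. The 3 lower genes were *Cxcr4*, the CXCL12 receptor, with 711 and 298, *Ada*, the adenosine deaminase that human DPP4 binds, with 83 and 28, and *Ptprc* (CD45), the highest of the list with 4239 and 1101. Fold reductions were 2.39 for *Cxcr4*, 2.96 for *Ada* and 3.85 for *Ptprc*, and their intervals excluded 1. *Cxcr4* and *Ptprc* averaged at least 100, where 56.8% of genes were at least 2-fold lower.

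Markers of other cells were followed because they could carry these peptidases. Of 8 markers of DN (CD4 and CD8 double-negative) thymocytes, the stage before DP, 3 were at least 2-fold higher and 0 lower, and 4 had an interval above 1, where 5.89% of all genes were higher and 17.4% lower. Under the 5 scalings, between 3 and 7 of the 8 were higher and 0 lower. Of all 20125 genes, between 1234 and 7492 were then higher. Each scaling raised the deficient library, so the count of higher markers could not fall and none could become lower. The scalings are therefore no test of this count. *Il2ra*, the CD25 chain, had 63 in WT and 207 in deficient cells, *Notch1* had 124 and 326, and *Notch3* had 56 and 167. The sum of the list was 425 in WT and 923 in deficient cells, with values from 28 to 124 in WT and from 36 to 326 in the deficient library, and 0 of its markers were at 0 in either. *Kit* had 35 and 36 and *Cd44* had 35 and 58. The part of DN cells in the value of *Mme* was not tested.

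Of 8 markers of B cells and their precursors, 0 were at least 2-fold higher and 2 were lower, with sums of 229 in WT and 189 in deficient cells. The lower genes were *Cd79a*, with 18 and 4 on approximately 6 and 1 reads, and *Vpreb1*, with 5 and 0 on approximately 1 and 0 reads. *Cd79b*, the highest, had 74 and 43. The 10 markers of thymic epithelium had sums of 319 and 254, with 0 at least 2-fold higher and 2 lower, *Ccl25* with 65 and 26 and *Krt8* with 4 and 0. *Foxn1*, their defining transcription factor, had 35 and 32, at background. The 10 markers of fibroblasts and endothelium had sums of 392 and 295, with 0 at least 2-fold higher and 1 lower, *Lum* with 37 and 14. *Pecam1*, the highest, had 119 and 66. Of 10 myeloid markers, 1 was at least 2-fold higher and 2 lower, with sums of 359 and 364. The higher gene was *Elane*, with 18 and 41, the lower ones were *Lyz2*, with 19 and 4, and *S100a9*, with 39 and 18, and *Itgam*, the highest, had 101 and 107. Of 6 markers of mature T cells, 0 were at least 2-fold higher and 1 was lower, *Foxo1*, with 199 and 86. Of the genes past 2-fold in these lists, *Lum* and *Foxo1* had intervals under 1. Those of *Cd79a*, *Vpreb1*, *Ccl25*, *Krt8*, *Elane*, *Lyz2* and *S100a9* included 1. Apart from *Ccl25* and *Foxo1*, the values of all these genes were within background. Over all genes, 5.89% were at least 2-fold higher and 17.4% lower. These counts also rest on the scaling. With the same median over well-expressed genes, 6 myeloid markers were higher and 1 lower, and 4 and 0 of mature T cells. For B cells they became 2 and 2, for thymic epithelium 2 and 1, and for fibroblasts and endothelium 2 and 0. Of all genes, 7492 were then higher and 706 lower. The part of any of these cells in the values of the peptidases was not tested.

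The genes whose pair of values was nearest to that of *Mme*, by Euclidean distance on log2(value + 1) over the 2 libraries, were *Fos*, *Il2ra*, *Notch3*, *Trib1* and *Coa6*, at distances from 0.843 to 1.29. *Fos*, an immediate early transcription factor, had 39 in WT and 166 in deficient cells, with an interval of the ratio from 2.59 to 7.42. *Trib1* had 54 and 152, and *Coa6* had 64 and 154. With *Mme* chosen by its ratio, all 5 had a higher value than *Mme* in WT and a lower one in the deficient library. Among the 1203 genes averaging at least as much as *Mme*, 48 were higher in deficient cells and 4 of these by at least 2-fold. After *Mme*, the highest ratios were 2.75 for *Phlda1*, with 125 and 344, 2.63 for *Notch1*, 2.39 for *Dusp1*, a MAP kinase phosphatase with 127 and 303, and 1.66 for *Heg1*, with 148 and 245.

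The windows around the start sites of the 5 genes differed in CpG, the dinucleotide that CXXC1 binds when it is unmethylated. RefSeq gives 3 start sites for *Mme*, and the 300 bases around the first 2, from 250 before to 50 after the start, are printed beside that of *Dpp4* with each CG in capitals. The coordinates of these windows are on GRCm38.p6, whereas those above are on mm9.
Mme, first start, chr3:63294961-63295260, plus strand: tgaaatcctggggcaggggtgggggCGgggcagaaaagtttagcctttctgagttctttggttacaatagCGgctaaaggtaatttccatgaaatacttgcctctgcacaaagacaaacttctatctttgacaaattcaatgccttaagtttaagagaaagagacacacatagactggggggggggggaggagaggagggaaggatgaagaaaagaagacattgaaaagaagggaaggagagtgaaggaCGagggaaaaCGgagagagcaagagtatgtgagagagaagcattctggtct
Mme, second start, chr3:63295622-63295921, plus strand: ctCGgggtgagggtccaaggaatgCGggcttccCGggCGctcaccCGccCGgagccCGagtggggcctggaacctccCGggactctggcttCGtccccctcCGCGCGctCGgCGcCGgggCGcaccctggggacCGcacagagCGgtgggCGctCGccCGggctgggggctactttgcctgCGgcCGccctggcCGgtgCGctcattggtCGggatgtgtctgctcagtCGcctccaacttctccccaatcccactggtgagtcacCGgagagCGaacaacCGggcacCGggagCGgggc
Dpp4, chr2:62412182-62412481, minus strand: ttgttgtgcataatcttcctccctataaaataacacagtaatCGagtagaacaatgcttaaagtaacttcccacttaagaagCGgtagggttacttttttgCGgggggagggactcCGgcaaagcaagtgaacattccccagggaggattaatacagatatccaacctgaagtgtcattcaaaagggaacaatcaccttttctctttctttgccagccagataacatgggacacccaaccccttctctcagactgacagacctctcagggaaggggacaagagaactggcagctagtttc
The first window of *Mme* and that of *Dpp4* hold 4 CG each, a number reached by 68.6% of the 32851 promoters of the same length in the table. The second window of *Mme* holds 32, reached by 9.52%, and the third holds 29. The median promoter held 7. *Anpep* had 28 and *Enpep* had 7, while the 4 start sites of *Ece1* had between 5 and 28. CG is its own reverse complement, so both strands give the same number. Which start site the reads of *Mme* came from cannot be read from 1 value per gene.

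**Figure D4:**
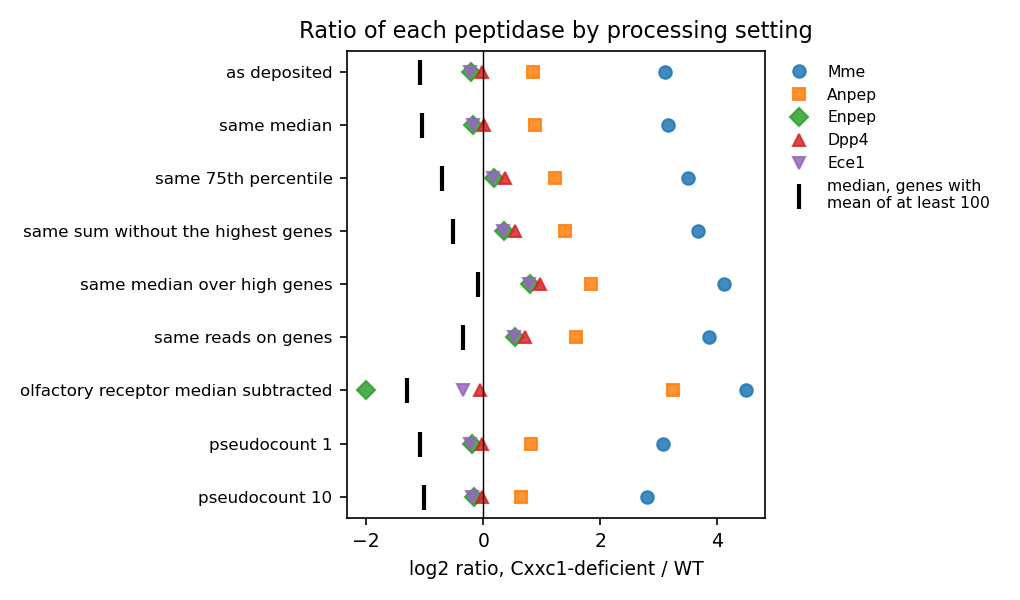
The log2 ratio of Cxxc1-deficient to WT for each peptidase (coloured symbols) in each processing setting, with the median of the genes averaging at least 100 as a black bar. Mme ranges from 6.91 to 22.5 in ratio, whereas Dpp4, Ece1 and Enpep lie on either side of 0 depending on the scaling. A scaling moves all symbols by the same factor and leaves their order unchanged.

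The plot of ratios by setting shows how far each gene depends on the scaling. *Mme*, which was chosen for its ratio, had a ratio between 6.91 and 22.5 in the 8 settings run. Each scaling multiplied the deficient library by a factor above 1, from 1.03 to 2.0, so it could only raise the ratios. A pseudocount pulls a ratio towards 1 without crossing it. That *Mme* stayed at least 2-fold higher in all 8 was therefore no test of its ratio. *Anpep* ran from 1.56 to 9.5, and neither scalings nor pseudocounts could have brought it under 1. *Dpp4* ran from 0.963 to 1.96. Scalings that brought the well-expressed genes of the libraries together placed *Dpp4* and *Ece1* above 1, with 1.96 and 1.71 when genes averaging at least 100 were given the same median. As deposited, the ratio of *Dpp4* was 0.984 beside a median of 0.471 for those genes. Scalings move both by the same factor and cannot change that order.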

How the data were processed

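RNA-seq of DP thymocytes was analysed, with 1 library from WT and 1 from *Cxxc1*-deficient mice. Reads of the mRNA libraries were mapped by the authors to mm9, with Bowtie 1.0.1 and CASAVA 1.8.2 named in the submitters' processing notes, and uniquely mapped reads were summarised per gene with the Partek Genomic Suite. What was deposited is a score per gene, an expression value that the authors normalized and rounded to whole numbers. Its unit and annotation are not given in the sources used here.

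Deposited values were modelled as whole reads over the product of transcript length and a library constant. The constant was searched over single-transcript genes (GENCODE vM1) shorter than 1500 bases with values under 40, and came to 246500 for WT and 212700 for the deficient library. With it, 75.9% of 1979 and 73.0% of 1874 values lay within 0.5 of the value that a whole number of reads gives, against 12.5 to 27.1% with constants moved by factors from 0.79 to 1.21. Of the genes, 19090 matched the annotation by symbol. Depth therefore limits genes near background, since a gene of median value had about 8.87 reads per kb (WT) or 7.66 (deficient).

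No test was possible. Ratios have a floor of 1, and the threshold of 2-fold is the one used in the paper. Named genes were the 5 peptidases, *Cxxc1*, genes of each list at least 2-fold apart with a value of at least 50 or with the highest mean, the 5 genes nearest to *Mme* and the 5 highest ratios at its level. Others were named after their values were seen, and some genes that the rule or the lists hold are not reported here. The members and lists were chosen with earlier results of these data known. Alternatives were other scalings, background subtraction, pseudocounts, filters and thresholds. The scripts were tested on simulated data. Calculations ran in Python 3.11.15 with scipy 1.17.1, pandas 2.3.3 and numpy 2.4.6, and plots were drawn with matplotlib 3.10.9.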

Additional observations from a re-analysis of the deposited data

How the results depend on the processing

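The ratio of Mme stayed at least 2-fold higher in all 8 settings run. This was no test of it, since Mme was chosen for its ratio and every scaling could only raise that ratio. As deposited, the ratios were 8.65 for Mme, 1.79 for Anpep, 0.867 for Enpep, 0.984 for Dpp4 and 0.857 for Ece1. Of the 55 other peptidases, 3 were at least 2-fold higher and 8 lower, of the ligands, receptors and partners 3 and 3, and over all genes 1186 and 3502. The counts below give genes that were higher, then lower. With the same 75th percentile, the ratio was 1.29 for Dpp4, the counts were 7 and 4 peptidases, 6 and 2 ligands, receptors and partners, and 2417 and 1783 of all genes. With equal sums apart from the 100 highest genes, the ratio was 12.8 for Mme, 1.45 for Dpp4 and 1.27 for Ece1, the counts were 13 and 2 peptidases, 9 and 2 ligands, receptors and partners, and 3468 and 1317 of all genes. With equal medians of the genes averaging at least 100, the ratio was 17.3 for Mme, 3.57 for Anpep, 1.73 for Enpep, 1.96 for Dpp4 and 1.71 for Ece1, the counts were 25 and 0 peptidases, 20 and 0 ligands, receptors and partners, and 7492 and 706 of all genes. With the same approximate reads on genes, a scaling chosen after seeing the data, the ratio was 14.4 for Mme, 1.65 for Dpp4 and 1.43 for Ece1, the counts were 19 and 2 peptidases, 13 and 1 ligands, receptors and partners, and 4910 and 1020 of all genes. After subtraction of the olfactory receptor median, the ratio was 22.5 for Mme, 9.5 for Anpep and 0.25 for Enpep, the counts were 13 and 20 peptidases, 11 and 7 ligands, receptors and partners, and 3038 and 7527 of all genes. These scalings raised the Cxxc1-deficient library by factors of 1.31, 1.48, 2.0 and 1.67, and shifted the median log2 ratio over all genes by 0.39, 0.56, 1.00 and 0.74, so that by construction more genes pass upwards and fewer downwards. The subtraction moved it by -0.24, and there Anpep and Enpep rest on differences of a few units from background. A pseudocount of 10 left 0 higher peptidases and 465 higher and 2312 lower of all genes. At 3-fold, 0 peptidases were higher and 2 lower, 1 of the ligands, receptors and partners was lower, and 508 and 1267 of all genes passed. Among genes above the median of mean values, 0 peptidases, 0 of the ligands, receptors and partners and 165 of all genes were higher. The counts of marker, ligand and receptor lists under each scaling were added after seeing the data. The filter and the threshold do not act on single ratios. No paired analysis was possible because WT and deficient cells have 1 library each, which also leaves no replicate to drop.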

Other observations

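The constant that turns the deposited values into whole reads came to 246500 for WT and 212700 for the deficient library, whereas the reads it gives on annotated genes summed to 1403733 and 724841. The reads on genes were thus 5.69 and 3.41 times the constant. What the constant counts is not given in the sources used here. Dividing by reads on genes instead raises each ratio by 1.67, which gives 14.4 for Mme and 1.65 for Dpp4.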
